A study of Mus musculus with 30 samples.

Results

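Heat shock proteins and their co-chaperones were followed in the Achilles tendon and in the heel bone of mice whose skeletal muscle was loaded by light. The set held 10 genes, Hspa1a, Hspa1b, Hspa8, Hsph1, Dnajb1, Hsp90aa1, Hspb1, Hspb7, Cryab and Bag3, picked by symbol from the 55426 genes of the deposited expected-count table. All 10 were present and all 10 passed the filter on low counts in both tissues. The table held 30 libraries in 10 groups of 3. In each tissue these were stimulated and unstimulated samples at day 5, stimulated and unstimulated samples at day 12, and naive samples at day 0. The titles call the stimulated samples "stimulated control", whereas their treatment label names a stimulation, and they were taken as stimulated. Every group, naive and unstimulated included, had the same genotype label, Acta1,Ai32. Ai32 is an allele that makes a light-gated cation channel fused to a yellow fluorescent protein once Cre has acted, and Acta1 is the actin gene of skeletal muscle. The light is thus meant to act on muscle and to load tendon and bone through it. The fluorescent protein was itself read at 1169 to 2525 CPM (counts scaled to a common library size) in tendon and 223 to 601 CPM in bone. Whether a change came by load or from cells in the samples that carry the channel was not tested. The labels used here give no age and do not say that each replicate came from its own animal. The p-values therefore rest on the scatter among the libraries as deposited, part of which may be technical.

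Chaperones keep other proteins from clumping while they fold or are damaged. HSP70 proteins bind and release unfolded stretches using ATP, J-domain proteins such as Dnajb1 deliver clients to them, Hsph1 and Bag3 make them let go, and HSP90 takes over some clients. Small heat shock proteins hold unfolding proteins without ATP, and in striated muscle Cryab, Hspb1, Hspb7 and Bag3 serve at the sarcomere, where load unfolds filamin and other structural proteins.

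Bulk tissue gave the values, so that fewer cells of a type and less RNA per cell cannot be told apart. Library totals were 24.5 to 44.6 M counts in tendon (median 30.3 M) and 19.3 to 35.0 M counts in bone (median 23.4 M). Replicates 1 and 2 of unstimulated bone at day 5 were much more alike than the samples of any other replicate pair, with a mean chi-square per gene of 6.52, against 21.5 to 231 in the 29 other pairs. They were counted as 1 library, which leaves n = 2 in that group and 14 bone libraries. Osteoblast and osteocyte markers summed to between 2520 and 4989 CPM (counts scaled to a common library size) in bone and at most 87.0 CPM in tendon, and all 9 tendon fibroblast markers were detected in both tissues, at an overlapping sum of 659 to 4909 CPM in tendon and 1309 to 4343 CPM in bone. The tendon libraries also held 15 of 15 skeletal muscle fibre markers, at a summed 138999 to 317399 CPM. In bone that sum ran from 138 CPM in naive replicate 3 to 32583 CPM in stimulated replicate 3 at day 12.

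Hspa1a and Hspa1b encode the stress-inducible HSP70 and lie side by side on the minus strand of chromosome 17, at chr17:34969190-34972156 and chr17:34956436-34959238 (GRCm38). Their coding sequences have 1923 and 1926 bases, with 8 differing bases and 3 in gaps, so that 99.4% of aligned positions were the same. Of all 100-base stretches of the Hspa1a transcript, 47.1% also occurred in Hspa1b, and reads from those stretches can only be shared out by an estimate. The 250 bases before each start, from RefSeq on GRCm38.p6, are shown because the libraries of both genes lay in the same order in the day 12 comparisons of both tissues, together with the window of Hspb1 (chr5:135887919-135889563, plus strand), a small heat shock protein. Whether the windows or the shared reads bear on that order was not tested. Capitals mark GAANNTTC, an inverted repeat of the GAA unit that heat shock factors bind. The windows span chr17:34972157-34972406 and chr17:34959239-34959488 on the minus strand and chr5:135887669-135887918 on the plus strand.
Hspa1a: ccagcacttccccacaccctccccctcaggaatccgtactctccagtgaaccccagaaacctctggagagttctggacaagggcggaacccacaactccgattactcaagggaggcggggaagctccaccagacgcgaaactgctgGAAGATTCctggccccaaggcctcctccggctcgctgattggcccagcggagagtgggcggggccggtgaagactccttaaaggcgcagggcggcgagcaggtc
Hspa1b: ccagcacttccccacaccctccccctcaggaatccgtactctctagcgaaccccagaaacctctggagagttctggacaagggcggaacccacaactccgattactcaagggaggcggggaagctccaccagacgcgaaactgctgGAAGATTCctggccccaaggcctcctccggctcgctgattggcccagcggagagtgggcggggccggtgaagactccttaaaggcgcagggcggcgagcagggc
Hspb1: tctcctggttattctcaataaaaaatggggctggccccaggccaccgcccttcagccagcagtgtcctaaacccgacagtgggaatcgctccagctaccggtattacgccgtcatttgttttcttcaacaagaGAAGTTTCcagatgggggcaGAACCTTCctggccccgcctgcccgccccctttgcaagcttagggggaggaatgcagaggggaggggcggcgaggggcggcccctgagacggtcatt

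Between the windows of Hspa1a and Hspa1b, 247 of 250 bases (98.8%) were the same. The changes from Hspa1a to Hspa1b, counted from 1 at the 5′ end, were C44T, T47C and T249G. The repeat GAAGATTC sat at positions 147 to 154 in both. GAANNTTC, which reads the same on both strands, was found in 6.69% of 32851 RefSeq windows of this length, and its tail-to-tail form TTCNNGAA in 7.17%. Of the 7 members with a window, 3 held GAANNTTC and 1, Hsph1, held TTCNNGAA, whereas the windows of Dnajb1, Hspb7 and Bag3 held neither. A run in which both forms overlap, sharing the TTC or the GAA, was in 0.466% of all windows and in 0 of the 7. Hspa8, Hsp90aa1 and Cryab had no entry. A match here is a run of letters and not a measured binding site.

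All 10 members differed between naive tendon and naive bone. Against a background of 68.4% of 19845 genes called in this comparison (33.3% higher and 35% lower in tendon), 8 members were higher and 2 lower in tendon. The small heat shock proteins differed most. Cryab (chr9:50751325-50756636), alpha-B-crystallin, stood at 892, 1202 and 1037 CPM in naive tendon, against 196, 105 and 18.9 CPM in naive bone, a log2 fold change of 3.29 ± 0.53 (SE, edgeR adjusted p = 1.12e-05). Hspb7 (chr4:141420779-141425311), a small heat shock protein of heart and skeletal muscle, stood at 1391, 1874 and 1676 CPM in naive tendon, against 359, 167 and 2.55 CPM in naive bone (log2 fold change 3.22 ± 0.85, edgeR adjusted p = 0.00199). No tendon library came near the bone libraries, and the bone value of 2.55 CPM, from 66 counts, belonged to naive replicate 3, the library with the fewest muscle fibre counts.

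Naive tendon was also higher for the co-chaperones Hsph1 (chr5:149614287-149636376), an HSP110 protein, with a log2 fold change of 2.60 ± 0.17 (edgeR adjusted p = 2.92e-11), and Bag3 (chr7:128523616-128546981), with 2.38 ± 0.18 (edgeR adjusted p = 1.33e-10). Hspb1 was higher by 2.84 ± 0.50, Hspa1a by 2.14 ± 0.51, Hspa1b by 1.60 ± 0.43 and the constitutive HSP70 Hspa8 (chr9:40800984-40810087) by 0.89 ± 0.13 on the log2 scale, with edgeR adjusted p-values of at most 0.00226. Dnajb1 (chr8:83608193-83612653), the J-domain partner of HSP70, ran the other way. It had 11.9, 11.9 and 15.6 CPM in naive tendon, against 30.7, 32.8 and 40.8 CPM in naive bone, a log2 fold change of -1.40 ± 0.14 (edgeR adjusted p = 9.35e-09). Hsp90aa1 (chr12:110690605-110702728), the inducible HSP90, had 77.9, 84.2 and 89.5 CPM in naive tendon, against 117, 142 and 149 CPM in naive bone, a log2 fold change of -0.70 ± 0.16 (edgeR adjusted p = 0.00052).

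Muscle fibre counts moved with this difference. With a muscle score as a covariate 5 members passed the threshold, beside 37.9% of all genes: Hsph1, Bag3 and Hspa8 remained higher in tendon, Dnajb1 remained lower, and Hspb7 reversed to -1.73 ± 0.60 (edgeR adjusted p = 0.0275). Cryab was then at 0.59 ± 0.45 and Hspb1 at 0.47 ± 0.53, not past the threshold. The muscle marker sums of tendon and bone did not overlap, so muscle and tissue cannot be told apart across the tissues. The estimates with the covariate rest on extending its slope across that gap. The plot against muscle fibre markers shows the tendon and bone libraries as separate clouds.

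**Figure D1:**
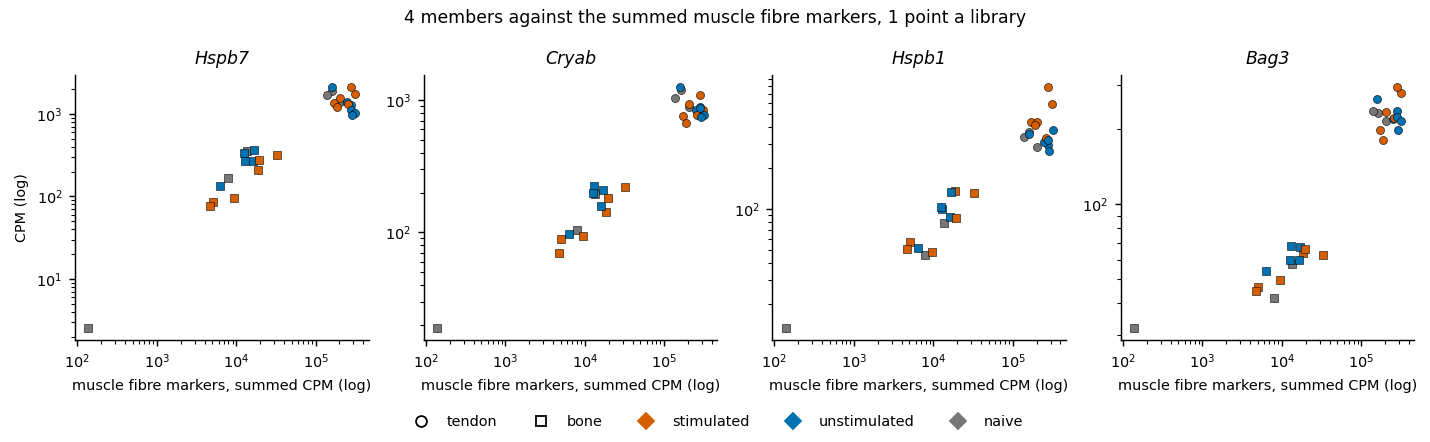
Level of Hspb7, Cryab, Hspb1 and Bag3 (CPM, log axis) against the summed skeletal muscle fibre markers (CPM, log axis), with 1 point for each of 29 libraries, circles for tendon, squares for bone and colour for treatment. The tendon libraries lie at 138999 CPM of markers or more, the bone libraries at 32583 CPM or less, and bone naive replicate 3 stands alone at 138 CPM.

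Levels can be compared between genes only per length, here as CPM per kilobase of annotated exons. That length pools the exons of all transcripts of a gene and was longest for Hsph1, at 7.266 kb. The rank of a gene, that of Hsph1 above all, depends on this choice. In naive tendon the order was Cryab at 706 ± 105, Hspb7 at 595 ± 87.5, Hspa8 at 329 ± 6.15, Hspb1 at 322 ± 41.3, Bag3 at 89.4 ± 4.21, Hsp90aa1 at 21.3 ± 1.48, Hsph1 at 13.3 ± 1.24, Hspa1a at 10.1 ± 0.995, Hspa1b at 8.95 ± 1.01 and Dnajb1 at 4.10 ± 0.672 CPM per kilobase (SD, n = 3). The libraries of Cryab and Hspb7, of Hspa8 and Hspb1, and of Hspa1a and Hspa1b overlapped, and the other neighbours did not. In naive bone Hspa8 led at 178 ± 6.05 CPM per kilobase, apart from all others. Cryab, Hspb7, Hspb1 and Hsp90aa1 followed at means of 72.2, 63.6, 44.7 and 34.6 CPM per kilobase with overlapping libraries, and Hsph1 was last at 2.18 ± 0.42 CPM per kilobase. Bag3 and Dnajb1, at 17.1 and 10.9 CPM per kilobase, overlapped in bone, as did Hspa1b, Hspa1a and Hsph1. The constitutive Hspa8 varied least across conditions, 1.34-fold between its lowest and highest of 15 tendon libraries and 1.45-fold over 14 bone libraries. Hspa1a spanned 13.8-fold in tendon, and 6.28-fold without stimulated replicate 3 of day 12. Hspb7 spanned 142-fold in bone, and 4.65-fold without naive replicate 3.

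**Figure D2:**
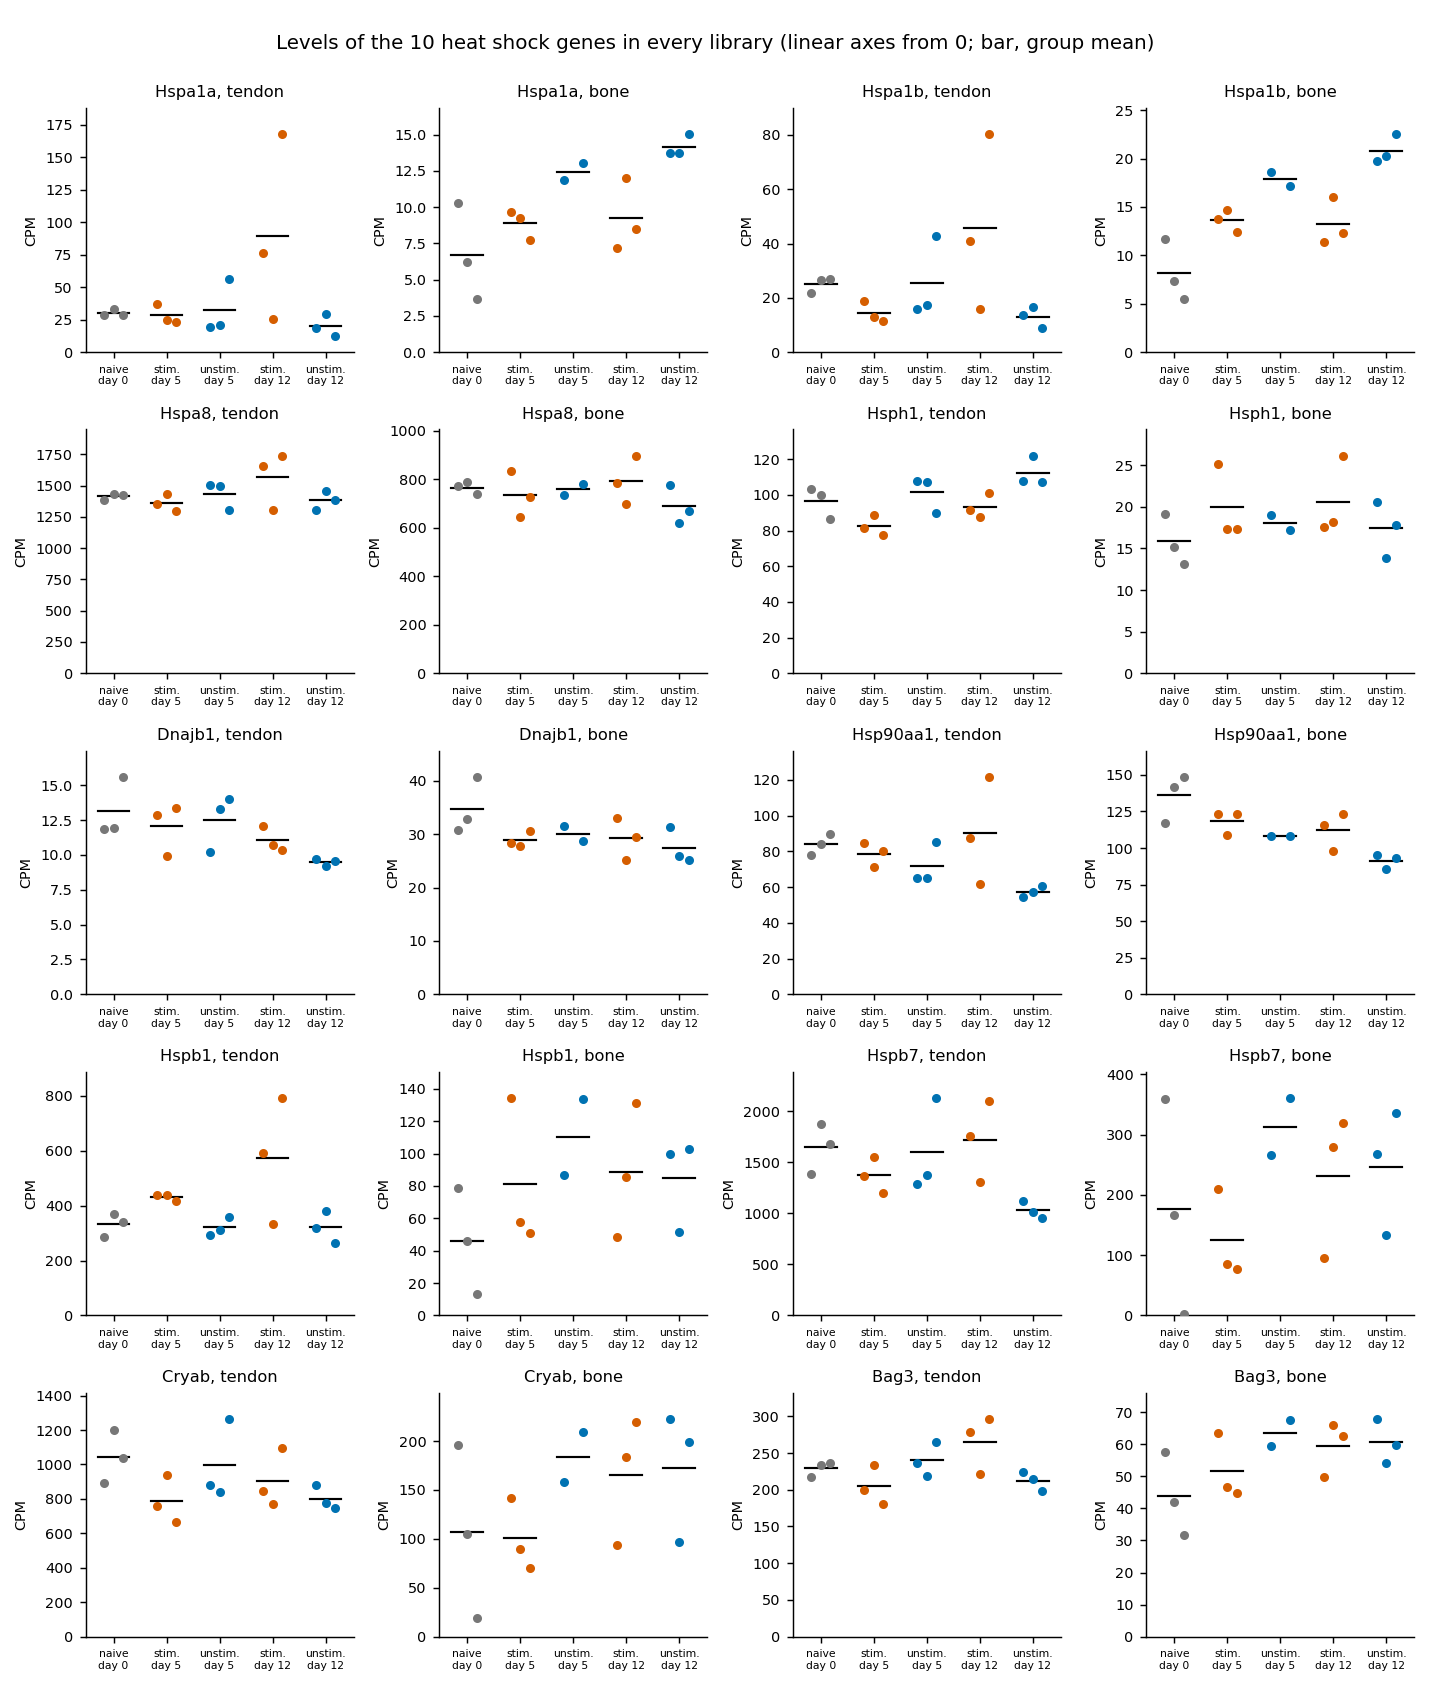
Level of each member (CPM, linear axes from 0) in every library, tendon and bone side by side, by group, with a bar at the group mean. In tendon at day 12, stimulated replicate 3 holds the highest Hspa1a of all libraries, 167 CPM, while in bone the unstimulated libraries at day 12 hold the highest, 13.7 to 15.02 CPM.

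The HSP70 copies did not keep the same proportion in tendon and bone. Hspa1a gave 51.3% to 67.6% of their summed counts in all 15 tendon libraries, and 38.3% to 46.8% in all 14 bone libraries, with no overlap. Within tendon at day 5 the share was 66.3% ± 0.714 in stimulated and 55.5% ± 1.15 in unstimulated libraries (SD, n = 3 each), with no overlap and an exact two-sided permutation p of 0.1, the smallest that 3 against 3 allows. At day 12 it was 64.7% ± 3.13 in stimulated and 59.8% ± 3.66 in unstimulated tendon, with overlapping libraries (exact two-sided permutation p = 0.2). In bone the stimulated and unstimulated shares overlapped at both days. How the counting shared out the reads that fit both copies was not tested.

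**Figure D3:**
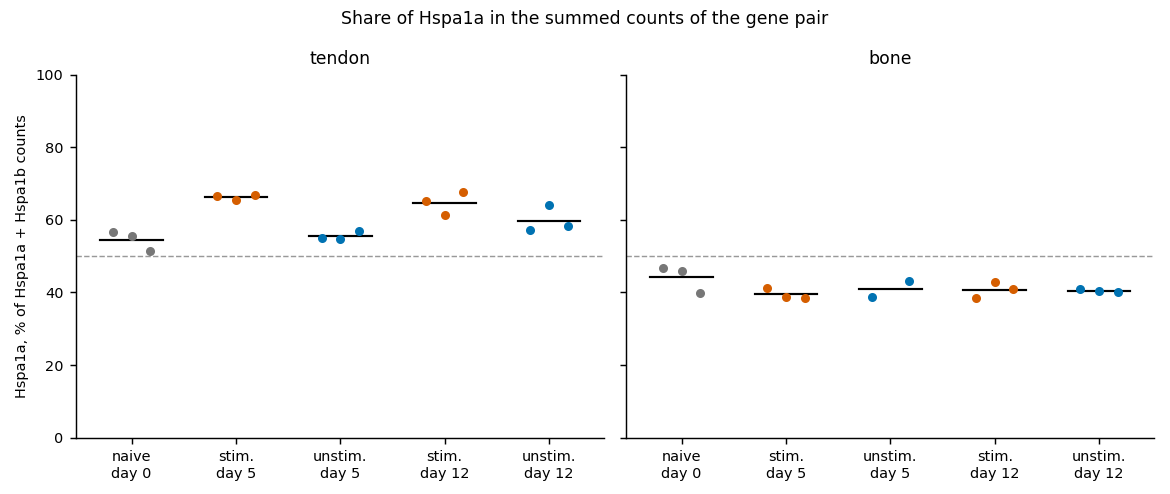
Share of Hspa1a in the summed counts of Hspa1a and Hspa1b (percent, axis from 0 to 100) in every library by group, with a bar at the group mean and a dashed line at 50%. Every tendon library lies above the line, between 51.3% and 67.6%, and every bone library below it, between 38.3% and 46.8%.

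Stimulation was compared within each tissue and day, which asks whether the stimulation altered the chaperones. In tendon at day 12 no member passed the threshold, on a background of 0.345% of 17108 genes called, although 7 of 10 had an unadjusted p under 0.05, against 11.2% of all genes. Of those 7, 6 lay on the higher side in stimulated tendon (Hspa1a, Hspa1b, Hspb1, Hspb7, Hsp90aa1 and Bag3) and 1, Hsph1, on the lower side. The median log2 fold change of the 10 was 0.49, against 0.01 over all genes tested. The members were chosen with earlier results of these data known, and Hspa1a and Hspa1b share reads. Such shares, here and below, are therefore no test of the set.

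Hspa1a stood at 76.2, 25.3 and 167 CPM in stimulated tendon at day 12, against 18.4, 29.5 and 12.1 CPM in unstimulated tendon. Stimulated replicates 1 and 3 lay above every unstimulated library and replicate 2 lay among them. The log2 fold change was 2.17 ± 0.60 (edgeR adjusted p = 0.145). Hspa1b had the same layout, with 40.9, 15.9 and 80.2 CPM in stimulated and 13.7, 16.6 and 8.73 CPM in unstimulated tendon, a log2 fold change of 1.82 ± 0.52 (edgeR adjusted p = 0.162). With both copies summed, so that the sharing of reads plays no part, the log2 fold change was 2.04 ± 0.57 (edgeR adjusted p = 0.149).

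Hspb1, which binds actin filaments and is made in stressed muscle, had 592, 333 and 793 CPM in stimulated tendon at day 12, against 319, 380 and 266 CPM in unstimulated tendon (log2 fold change 0.84 ± 0.24, edgeR adjusted p = 0.15). Hspb7 had 1759, 1309 and 2106 CPM in stimulated and 1121, 1011 and 956 CPM in unstimulated tendon. Every stimulated library lay above every unstimulated one for Hspb7, with a log2 fold change of 0.75 ± 0.21 (edgeR adjusted p = 0.145). Hsp90aa1 had 87.3, 62.0 and 122 CPM in stimulated and 54.6, 57.1 and 60.7 CPM in unstimulated tendon, again without overlap (log2 fold change 0.66 ± 0.19, edgeR adjusted p = 0.151). Dnajb1 was the third member with all stimulated libraries above, at 10.4 to 12.1 CPM in stimulated and 9.24 to 9.74 CPM in unstimulated tendon. Bag3 was at 0.33 ± 0.12 (edgeR adjusted p = 0.327), Hspa8 at 0.18 ± 0.12 and Cryab at 0.18 ± 0.19, each with overlapping libraries. Layouts without overlap were held by 7.47% of all genes on the higher side and 7.35% on the lower side.

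Leaving out stimulated replicate 2 changed the calls at day 12. That library held the group's lowest value for 9 of 10 members, and replicate 3 the highest for 9 of 10. Without stimulated replicate 2, 5 members passed, while the share of all genes called was 3.85%: Hspb1 at 1.10 ± 0.17 (edgeR adjusted p = 0.00371), Hsp90aa1 at 0.86 ± 0.15 (edgeR adjusted p = 0.00711), Hspa1a at 2.60 ± 0.50 (edgeR adjusted p = 0.0162), Hspa1b at 2.21 ± 0.44 (edgeR adjusted p = 0.0186) and Hspb7 at 0.90 ± 0.21 (edgeR adjusted p = 0.0346). Without stimulated replicate 3, none passed, and Hspa1a was at 1.35 ± 0.55 (edgeR adjusted p = 0.665), Hspa1b at 1.13 ± 0.49 (edgeR adjusted p = 0.712), Hspb1 at 0.53 ± 0.21 and Hsp90aa1 at 0.38 ± 0.15. On all libraries DESeq2 called 5 members, beside 1.2% of 30647 genes with no count filter. limma-voom with quality weights called 2, beside 1.38% of 17108 filtered genes, so these shares have unlike bases. Muscle fibre markers overlapped between these groups, with a summed 259223 to 312705 CPM in stimulated and 279215 to 317399 CPM in unstimulated tendon, and 0 of 15 markers passed the threshold. Stimulated replicate 2 had the lowest of these sums. The fluorescent protein of the channel did not overlap, at 1359 to 1779 CPM in stimulated and 2147 to 2525 CPM in unstimulated tendon. Tendon fibroblast markers summed to 659, 2360 and 1702 CPM in stimulated and 794, 944 and 1725 CPM in unstimulated tendon, with stimulated replicate 2 the highest. The endothelial marker sum was also highest in stimulated replicate 2, at 652 CPM. Immediate early genes summed to 754, 620 and 706 CPM in stimulated and 481, 624 and 449 CPM in unstimulated tendon, with replicates 1 and 3 above every unstimulated library and replicate 2 among them, and 1 of 17 was called higher. Schwann cell markers summed to 607, 69.7 and 559 CPM in stimulated and 82.2, 195 and 932 CPM in unstimulated tendon, with replicate 2 again the lowest and 0 of 5 called. Their part in the result was not tested.

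Hsph1 was the only member with an estimate below 0 in tendon at day 12, whereas at day 5 it was 1 of 8. At day 12 it had 91.3, 87.6 and 101 CPM in stimulated and 108, 122 and 107 CPM in unstimulated tendon, and at day 5 it had 81.3, 88.7 and 77.7 CPM in stimulated and 108, 107 and 89.6 CPM in unstimulated tendon. All stimulated libraries lay below all unstimulated ones on both days, with log2 fold changes of -0.29 ± 0.10 at day 5 (edgeR adjusted p = 0.452) and -0.26 ± 0.10 at day 12 (edgeR adjusted p = 0.327). At day 5 no member passed in edgeR, on a background of 0.0585% of genes called. Hsph1 alone had an unadjusted p under 0.05 there, as did 8.28% of all genes. DESeq2 called 0 members, and limma-voom 3 beside 15% of all genes. Hspb1 was then the only member with all stimulated libraries above, at 437, 438 and 417 CPM in stimulated and 294, 312 and 358 CPM in unstimulated tendon (log2 fold change 0.43 ± 0.24, edgeR adjusted p = 0.695), a layout of 6.48% of genes on the higher side (6.15% on the lower side).

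The libraries of Hspa1a overlapped at day 5, with 37.0, 24.8 and 22.8 CPM in stimulated and 19.6, 20.7 and 56.4 CPM in unstimulated tendon. Its log2 fold change was -0.19 ± 0.58 and that of Hspa1b -0.82 ± 0.51, and the 6 members not yet given for day 5 lay between -0.32 for Cryab and 0.14 for Hsp90aa1. Without unstimulated replicate 3 the estimates were 0.50 ± 0.61 for Hspa1a, of the opposite sign, and -0.20 ± 0.51 for Hspa1b. Unstimulated replicate 3 stood apart there, and it held the group's highest value for 8 of 10 members. The same library had 158964 CPM of muscle fibre markers, against 249890 and 282509 CPM in the other unstimulated libraries, and the highest Schwann cell marker sum of the tendon libraries, 2736 CPM. Their part in the result was not tested. The change of the stimulation effect from day 5 to day 12 was 2.37 ± 0.83 for Hspa1a, 2.64 ± 0.73 for Hspa1b, 0.96 ± 0.30 for Hspb7 and 0.55 ± 0.18 for Bag3 on the log2 scale. None passed in edgeR, DESeq2 or limma-voom (edgeR adjusted p = 1 for all 4), on a background of 0% of genes called. These 4 had an unadjusted p under 0.05, against 4.09% of all genes, and all 10 members had a higher estimate at day 12. Without unstimulated replicate 3 of day 5 the change was 1.68 ± 0.80 for Hspa1a and 2.02 ± 0.68 for Hspa1b.

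**Figure D4:**
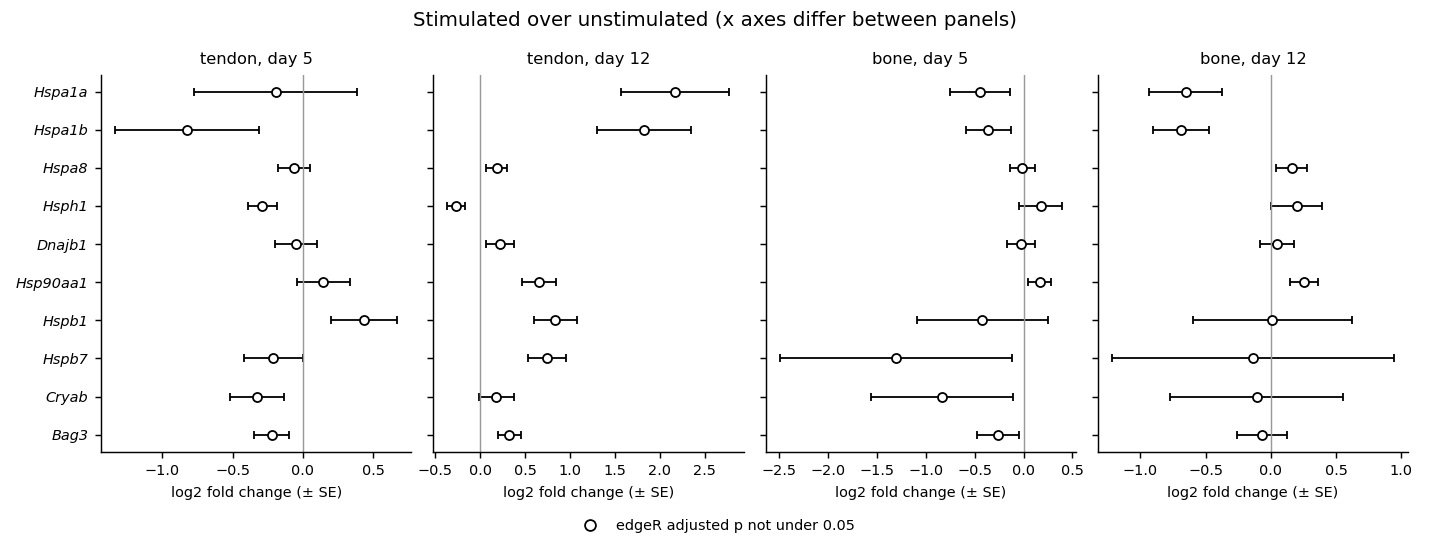
Log2 fold change of stimulated over unstimulated libraries for each member, with its standard error, in tendon and bone at day 5 and day 12. All symbols are open because no member passed the edgeR threshold of 0.05. Hspa1a and Hspa1b stand at 2.17 and 1.82 in tendon at day 12, and at -0.65 and -0.69 in bone at day 12.

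In bone the inducible HSP70 pair lay on the lower side in stimulated samples. Hspa1a had 7.18, 12.0 and 8.53 CPM in stimulated bone at day 12, against 13.7, 13.8 and 15.02 CPM in unstimulated bone. Hspa1b had 11.4, 16.1 and 12.3 CPM in stimulated and 19.8, 20.2 and 22.5 CPM in unstimulated bone. For both genes every stimulated library was below every unstimulated one, with log2 fold changes of -0.65 ± 0.28 (edgeR adjusted p = 0.314) and -0.69 ± 0.21 (edgeR adjusted p = 0.214). At day 5 the layout was the same: Hspa1a had 9.69, 9.29 and 7.72 CPM in stimulated and 11.9 and 13.03 CPM in unstimulated bone, and Hspa1b 13.8, 14.6 and 12.4 CPM in stimulated and 18.7 and 17.2 CPM in unstimulated bone (edgeR adjusted p = 0.731 and 0.718). Hspb7 and Cryab also had every stimulated library below both unstimulated ones at day 5, at -1.31 ± 1.19 and -0.84 ± 0.73 on the log2 scale (edgeR adjusted p = 0.797 and 0.788). Muscle fibre markers then summed to 18747, 5081 and 4714 CPM in stimulated and 16243 and 16800 CPM in unstimulated bone, with a median log2 fold change of -0.76 and 0 of 15 called.

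Markers of other cells also lay apart in bone at day 12. Adipocyte markers summed to 908 to 928 CPM in stimulated and 1071 to 1396 CPM in unstimulated bone. Schwann cell markers summed to 239 to 516.6 CPM in stimulated and 517.02 to 1515 CPM in unstimulated bone, and keratinocyte markers to 3.94 to 4.16 CPM in stimulated and 5.40 to 7.49 CPM in unstimulated bone. None of these markers passed the threshold, and their part in the result was not tested.

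Hsp90aa1 had the opposite layout in bone. It had 116, 97.95 and 123 CPM in stimulated and 95.4, 85.5 and 93.0 CPM in unstimulated bone at day 12 (log2 fold change 0.25 ± 0.10, edgeR adjusted p = 0.296), and 109 to 123 CPM in stimulated, against 108 and 108 CPM in unstimulated bone at day 5 (0.17 ± 0.12, edgeR adjusted p = 0.733). Stimulated libraries lay above on both days. No member passed in bone with edgeR, DESeq2 or limma-voom, where edgeR called 0.0371% of 18851 genes at day 12 and 0% at day 5. At an unadjusted p under 0.05 there were 3 members at day 12 (Hspa1a, Hspa1b and Hsp90aa1) and 0 at day 5, against 14.6% and 8.07% of all genes. Libraries without overlap were found at day 12 for 8.14% of genes on the higher and 7.96% on the lower side, and at day 5, with only 2 unstimulated libraries, for 11.6% and 17.1%. The small heat shock proteins spread so widely in bone that the data bound them little: at day 12 Hspb7 was at -0.14 ± 1.08, Cryab at -0.11 ± 0.66 and Hspb1 at 0.01 ± 0.61 on the log2 scale. The change of the stimulation effect from day 5 to day 12 in bone passed for 0 members in edgeR, DESeq2 and limma-voom and for 0 at an unadjusted p under 0.05 (0% of genes called), with -0.21 ± 0.42 for Hspa1a and 0.09 ± 0.16 for Hsp90aa1.

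The stimulation effect on the HSP70 pair at day 12 was then compared between the tissues. Tendon minus bone was 2.78 ± 0.71 for Hspa1a (edgeR adjusted p = 0.107) and 2.46 ± 0.60 for Hspa1b (edgeR adjusted p = 0.0993), not past the threshold, on a background of 0.222% of 19845 genes called. Without tendon stimulated replicate 2, with 1.8% of all genes called, both passed, at 3.22 ± 0.60 (edgeR adjusted p = 0.00675) and 2.87 ± 0.50 (edgeR adjusted p = 0.00378). These were the highest estimates of 20 alternatives. The lowest were 1.95 for Hspa1a, which was called in 2 of the 20, and 1.77 for Hspa1b, called in 3. On all libraries DESeq2 called both, beside 0.632% of 34656 genes with no count filter, and limma-voom 1 member, beside 0.539% of 19845 filtered genes. At an unadjusted p under 0.05 there were 3 members, against 10.9% of all genes. At day 5 the differences were 0.28 ± 0.73 and -0.43 ± 0.62 (edgeR adjusted p = 0.984 and 0.94), with 0% of genes called and 0 members called by any of the 3 tools or at an unadjusted p under 0.05.

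Unstimulated samples were also compared with naive ones, which asks what the course of the experiment did without light-driven loading. These comparisons share their unstimulated libraries with those above. In bone at day 12, 3 members were called on a background of 21.8% of genes (10.1% higher and 11.7% lower). Hspa1a rose to 13.7, 13.8 and 15.02 CPM in unstimulated bone, against 10.3, 6.22 and 3.67 CPM in naive bone, a log2 fold change of 1.11 ± 0.29 (edgeR adjusted p = 0.0181). Hspa1b rose to 19.8, 20.2 and 22.5 CPM, against 11.7, 7.34 and 5.53 CPM in naive bone (1.39 ± 0.22, edgeR adjusted p = 0.00218). Hsp90aa1 fell to 95.4, 85.5 and 93.0 CPM in unstimulated bone, against 117, 142 and 149 CPM in naive bone (-0.53 ± 0.11, edgeR adjusted p = 0.0053). The libraries of these 3 genes did not overlap between the groups, a layout of 16.5% of genes on the higher and 23.3% on the lower side.

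Marrow and other cell types moved at the same time in bone. In unstimulated bone at day 12, 8 of 8 erythroid markers (a summed 3046 to 6187 CPM in unstimulated and 13950 to 40833 CPM in naive bone) and 5 of 8 neutrophil markers were lower, and 6 of 9 tendon fibroblast and 3 of 4 adipocyte markers were higher. Of the others, 2 of 4 osteoclast and 2 of 9 osteoblast and osteocyte markers and 1 of 17 immediate early genes were lower, and 1 of 5 macrophage markers was higher. Their part in the result was not tested. With the muscle score as a covariate the 3 calls remained, beside 14.8% of all genes, at 0.80 ± 0.22 for Hspa1a, 1.17 ± 0.19 for Hspa1b and -0.46 ± 0.11 for Hsp90aa1 (edgeR adjusted p = 0.032, 0.00555 and 0.0229). Hspa1a lost its call in 3 of 14 alternatives, at nearly the same estimate. These were without naive replicate 2 (1.05 ± 0.34, edgeR adjusted p = 0.0733, 10.3% of genes called), without unstimulated replicate 3 (1.08 ± 0.33, edgeR adjusted p = 0.0521, 13.4% called) and with only the libraries compared (1.124, edgeR adjusted p = 0.0616, 16.5% called). Bag3, at 0.51 ± 0.19 (edgeR adjusted p = 0.0773), gained a call without naive replicate 1 (21.6% of genes called). At day 5, with 0.435% of genes called, no member passed in edgeR, and 4 had an unadjusted p under 0.05, against 14.8% of all genes. DESeq2 called 1 member beside 1.57% of 33283 genes with no count filter, and limma-voom 2 beside 2.72% of 18851 filtered genes. Hspa1b was then at 1.13 ± 0.24 (edgeR adjusted p = 0.068). Without naive replicate 1, with 1.3% of genes called, Hspa1b at 1.47 and Hspa1a at 1.33 passed. That library held the highest naive value of both genes, and these were the highest estimates of 13 alternatives. The lowest were 0.83 for Hspa1b, which was called in 5 of the 13, and 0.45 for Hspa1a, called in 2.

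In tendon at day 12, 2 members were lower in unstimulated than in naive samples, on a background of 18.8% of genes called (10.6% lower). Hspb7 fell to 1121, 1011 and 956 CPM in unstimulated tendon, against 1391, 1874 and 1676 CPM in naive tendon (log2 fold change -0.69 ± 0.21, edgeR adjusted p = 0.038). Dnajb1 fell to 9.74, 9.24 and 9.54 CPM, against 11.9, 11.9 and 15.6 CPM in naive tendon (-0.48 ± 0.15, edgeR adjusted p = 0.0416). Hsp90aa1 missed the threshold at -0.56 ± 0.19 (edgeR adjusted p = 0.0516), with 54.6, 57.1 and 60.7 CPM in unstimulated and 77.9, 84.2 and 89.5 CPM in naive tendon. In all, 5 members had every unstimulated library below every naive one, a layout of 24% of genes, and Hsph1 had every one above.

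Hspb7 fell while muscle fibre markers rose: 12 of 15 were higher in unstimulated tendon at day 12, with a median log2 fold change of 0.87, and 7 of 9 tendon fibroblast markers were lower. Also lower were 8 of 17 immediate early genes (median -0.82), 5 of 5 tested erythroid, 4 of 5 macrophage, 3 of 7 tested osteoblast and osteocyte and 2 of 4 osteoclast markers. Their part in the result was not tested. Leaving out tendon naive replicate 2 or 3, or any of the 3 unstimulated libraries, left no member called (Hspb7 then at -0.76 to -0.59 and Dnajb1 at -0.55 to -0.34), and the share of all genes called was then lower too, at 8.21% and 1.19% without these naive libraries and at 7.61%, 0.487% and 10.9% without unstimulated replicates 1, 2 and 3. With the muscle score as a covariate Hspb7 was at -0.23 ± 0.22 and Dnajb1 at -0.21 ± 0.19, neither called, beside 0.0409% of all genes. At day 5, with 0.0351% of genes called, no member passed in edgeR or at an unadjusted p under 0.05, and 0 of 10 had libraries without overlap (6.76% and 8.98% of genes on the higher and lower side). DESeq2 called 0 members, and limma-voom 1 beside 22.9% of all genes. The estimates ran from -0.23 for Hsp90aa1 to 0.11 for Hspa1a.

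**Figure D5:**
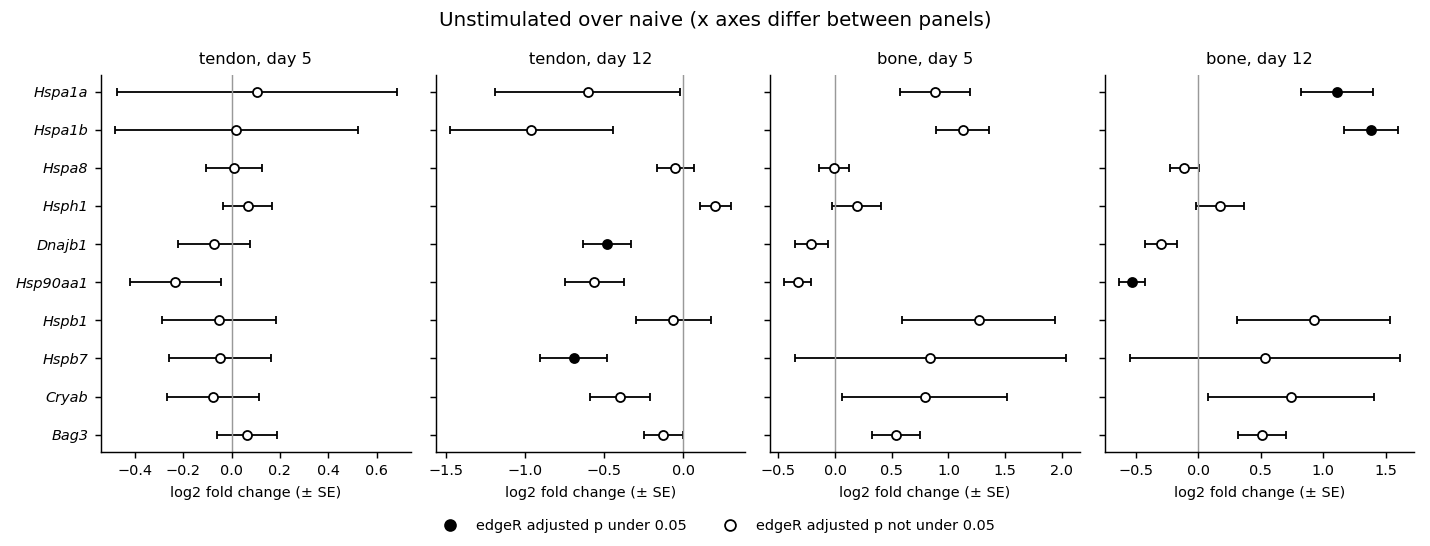
Log2 fold change of unstimulated over naive libraries for each member, with its standard error, in tendon and bone at day 5 and day 12. Filled symbols passed the edgeR threshold of 0.05: Hspb7 and Dnajb1 below 0 in tendon at day 12, and Hspa1a and Hspa1b above 0 and Hsp90aa1 below 0 in bone at day 12.

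A wider set of 87 genes, of chaperones and of their regulators, clients and partners, gave the members their setting, and 84 of them were tested. It held other small heat shock proteins, other HSP70 and HSP110 proteins, other J-domain proteins, HSP90 with its co-chaperones, partners of BAG3, heat shock factors, mitochondrial chaperones and the CCT chaperonin. None of the 84 passed edgeR in any comparison of stimulated with unstimulated samples. At an unadjusted p under 0.05 there were 5 of 84 in tendon at day 5 and 14 of 84 in tendon at day 12, where 8.28% and 11.2% of all genes had one. In bone there were 7 of 84 at each day, where 8.07% of all genes had one at day 5 and 14.6% at day 12. In tendon at day 12 the smallest p belonged to Flnc, filamin C, a client of the BAG3 machinery in muscle, at 1782 to 5852 CPM in stimulated and 1272 to 1753 CPM in unstimulated tendon (log2 fold change 1.42 ± 0.30, edgeR adjusted p = 0.0727). Next were Fkbp5, an HSP90 co-chaperone induced by glucocorticoids, at -0.54 ± 0.13 (edgeR adjusted p = 0.0964), and Dnajb6, a J-domain protein of the Z-disc, at 0.31 ± 0.08 (edgeR adjusted p = 0.114).

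Against naive tendon, Fkbp5 rose to 91.8 to 117 CPM in unstimulated tendon at day 5 and 110 to 118 CPM at day 12, against 25.5 to 30.6 CPM in naive tendon (log2 fold changes 1.89 ± 0.14 and 1.96 ± 0.14, edgeR adjusted p = 3.86e-05 and 2.46e-05). It was the only one of the 84 called at day 5. At day 12, 14 of 84 were higher and 0 lower (8.17% and 10.6% of all genes), with a median log2 fold change of 0.16 over the 84 and -0.03 over all genes. They included Smyd1, which works with HSP90 on myosin, at 0.50 ± 0.10, the ubiquitin ligase Stub1, a partner of HSP70 and BAG3, at 0.39 ± 0.09, and the heat shock factor Hsf4 at 0.87 ± 0.22 (edgeR adjusted p = 0.0118, 0.0183 and 0.0214). In bone at day 12, 6 of 84 were higher and 3 lower than in naive samples, shares under the 10.1% and 11.7% of all genes, among them Dnajc9, a J-domain protein that binds histones, at -0.67 ± 0.13, and Hspa12b, an HSP70 relative of endothelium, at 0.60 ± 0.16 (edgeR adjusted p = 0.00434 and 0.0179). Between the naive tissues 68 of 84 were higher and 4 lower in tendon, where 33.3% of all genes were called higher and 35% lower. Those higher included 9 of 9 mitochondrial chaperones and 8 of 8 CCT subunits.

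The genes whose levels tracked a member most closely were found over all libraries of a tissue, as the smallest mean absolute difference of centred log2 CPM. Over 15 tendon libraries those nearest to Hspa1a were Flnc (0.33), Xirp1 (0.35) and Sntb1 (0.36), where Hspa1a itself deviated from its mean by 0.65. Hspa1b, a member and so not ranked, was nearer to Hspa1a than any gene named here, at 0.289 in tendon and 0.117 in bone. Nearest to Hsph1 were Mtf1 (0.0639), Mapk9 (0.0738) and Ficd (0.074), and nearest to Cryab were Bag2 (0.0979), Wdr1 (0.102) and Gm49909 (0.117). Over 14 bone libraries Cdh13 (0.122), Lgi4 (0.129) and Hr (0.141) were nearest to Hspa1a, and Nkain1 (0.0963), Exd2 (0.0995) and Ndufaf4 (0.103) to Hsph1. Mustn1 (0.118) and the small heat shock protein Hspb8 (0.164) were nearest to Cryab in bone. These distances describe the libraries and share their depth and tissue makeup. That between Hspa1a and Hspa1b also rests on reads that fit both copies.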

How the data were processed

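Total RNA from a PureLink kit went into poly-A libraries, per the labels' protocols. The submitters' processing notes name cutadapt 2.3, FastQC 0.11.8, MultiQC 1.7, STAR 2.7.8a, RSEM 1.3.3 and the build GRCm38. Which annotation release and which strand setting were used is not given in the sources used here, so reads of overlapping or antisense genes cannot be told apart. The values the authors deposited are expected counts from RSEM, 1 per gene and library, of which 0 were not whole. RSEM shares reads of near-identical genes by an estimate.

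Counts were tested in edgeR 4.0.16 (R 4.3.3) with TMM scaling, filterByExpr (minimum count 10, minimum total 15), the robust quasi-likelihood F test of 1 fit per tissue (or 1 fit of both, for differences between tissues) and Benjamini-Hochberg adjustment over all genes tested (threshold 0.05). The method was tested on simulated counts. The SE is the log2 fold change over the square root of F. Levels are CPM with TMM factors over 29 libraries, and per kilobase they use the union of GENCODE M21 exons. Alternatives were DESeq2 1.42.0, its size factors in edgeR, no count filter, limma-voom (limma 3.58.1) with quality weights, a replicate block, the near-identical bone pair kept as 2 libraries, only the libraries compared, a muscle score as covariate (from 15 fibre markers, log2 CPM with a prior count of 2), Hspa1a and Hspa1b summed, and leaving out each library. Same-numbered samples did not deviate together, so numbers were not used to pair samples.

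All members are named. Of the wider chaperone lists, every gene called, up to 6 by smallest p, or otherwise up to 3, could be named. Likeness was measured over genes other than the members, with a mean of at least 1 CPM. The 3 nearest genes were named, except 1 that is not reported here. The members and lists were chosen with earlier results of these data known.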

Additional observations from a re-analysis of the deposited data

How the results depend on the processing

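With 3 libraries a group, and 2 in unstimulated bone at day 5, single libraries and the tool changed several calls. Counts of members called in edgeR are set here beside those that differed by more than 1.5 times. In tendon at day 5, stimulated against unstimulated, 0 became 3 with limma-voom, and at day 12, 0 became 5 with DESeq2 and 2 with limma-voom. For unstimulated against naive tendon, 0 became 1 with limma-voom at day 5, and at day 12, 2 became 5 with limma-voom, 5 with only the libraries compared and 0 with the muscle score. For unstimulated against naive bone at day 5, 0 became 1 with DESeq2, 2 with limma-voom, 1 with the replicate block (which keeps the near-identical pair as 2 libraries) and 1 with that pair kept alone, and at day 12, 3 became 5 with limma-voom. For naive tendon against naive bone 10 became 5 with the muscle score, where Hspb7 reversed to -1.73. For the stimulation effect between tissues at day 12, 0 became 2 with DESeq2 and 1 with limma-voom. Calls over all genes moved between these settings too, over the ranges given at the end. A changed count of members is therefore no result about the members alone. The cause was not tested. Leaving out each library gave 0 to 5 members in tendon stimulated against unstimulated at day 12, 0 to 2 in unstimulated against naive tendon at day 12, 0 to 2 and 2 to 4 in unstimulated against naive bone at days 5 and 12, 10 in every case between the naive tissues, 0 to 2 for the effect between tissues at day 12, and 0 in the other 7 comparisons.

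Of 609 recomputed values of single members, 555 kept direction and side of the threshold, 21 lost a call, 32 gained one and 1 reversed. Among the 90 values with an unadjusted p not under 0.05, 45 changed sign under at least 1 alternative and 5 were called under one. Same-numbered samples correlated between -0.31 and 0.37 over 24 pairs, with 6 above 0.1, and 5 samples correlated best with their own number. Between stimulated and unstimulated samples only replicate 3 did so, in tendon at both days (0.23 and 0.37) and in bone at day 12 (0.32). The replicate block added 1 call in unstimulated against naive bone at day 5 and 1, Hsp90aa1, in unstimulated against naive tendon at day 12 (3 in place of 2, as with DESeq2), and changed no other count of members.

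Calls over all genes also moved between tools and models, not counting left-out libraries. For stimulated against unstimulated they were 10 (0 to 2558) in tendon at day 5, 59 (0 to 367) in tendon at day 12, 0 (0 to 45) in bone at day 5 and 7 (0 to 427) in bone at day 12. For unstimulated against naive they were 6 (1 to 3914) and 3209 (7 to 6155) in tendon and 82 (0 to 522) and 4110 (2787 to 6198) in bone, at days 5 and 12. They were 0 (0 to 12) and 0 (0 to 56) for the change of the effect between days in tendon and bone, 0 (0 to 470) and 44 (3 to 219) for the effect between tissues at days 5 and 12, and 13569 (7524 to 14686) between the naive tissues.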
